A study of Mus musculus with 2 samples.

Results

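The levels of 6 complement genes were followed across the stromal, endothelial and blood cells of mouse long-bone marrow. They are C3, C4b, Cfb, Serping1, C1s1 and C1ra, found by symbol among the 34144 genes listed for both libraries, and each symbol matched 1 row. The files pair them with the identifiers ENSMUSG00000024164 (C3), ENSMUSG00000073418 (C4b), ENSMUSG00000090231 (Cfb), ENSMUSG00000023224 (Serping1), ENSMUSG00000038521 (C1s1) and ENSMUSG00000055172 (C1ra). The study measured single-cell RNA in 1 library of old and 1 library of adult wild-type C57BL6 mice. Both came from flushed, enzyme-digested long bone, depleted of blood-forming cells and sorted for live cells before 10x droplet capture of transcript 3' ends. The labels state neither ages in months, sex and the number of mice nor any pooling. With 1 library per age group there is no replicate, so no test was made: the intervals below are exact 95% intervals that cover counting error only, and age, animal and library cannot be told apart.

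Complement is a cascade of plasma proteins that tags cells and debris for removal. In the classical route the proteases C1r and C1s, bound to C1q, cut C4 and C2, and C1 inhibitor, a serpin encoded by Serping1, stops both proteases. C3 is the component on which all routes converge, and factor B, encoded by Cfb, gives the alternative route its C3-cutting protease. The liver makes most of the circulating proteins, and many of the genes are also active in tissue fibroblasts and other stromal cells. In mice C1ra, C1s1 and C4b have close copies called C1rb, C1s2 and C4a.

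The old library held 229917243 UMIs (unique molecular identifiers, each a counted transcript) in 22298 barcodes, and the adult library 208637421 UMIs in 25635 barcodes. After barcodes with under 500 genes or over 10% mitochondrial UMIs were left out, 18975 old and 22403 adult cells remained, with medians of 7736 and 7139 UMIs. Cells were classed by marker genes that include no complement gene, and the thresholds of this gate were set after the data had been seen. The largest class carried the markers of CAR cells, the CXCL12-abundant reticular cells that surround marrow sinusoids and support blood stem cells: 14359 old and 15063 adult cells. In these CAR-like cells Cxcl12 stood at 7832 CPM (UMIs scaled in the usual way to the UMI total of the class) in the old library and 8319 CPM in the adult one, and Lepr at 2611 and 2039 CPM. Among all kept cells, 2075 old and 3770 adult cells had a sum of CAR markers within 2-fold of the gate's threshold on either side. The libraries shared 152 barcodes, of which 108 were kept in both.

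Promoter sequence was at hand for 3 of the 6 genes, C3, C1s1 and C1ra, in the RefSeq table of build GRCm38.p6. They are shown because C3 and C1s1 were higher in old CAR-like cells while C1ra, a neighbour of C1s1 on chromosome 6, differed less. Each line gives the 250 bases before the start, 5′ to 3′ on the gene's strand, at chr17:57228137-57228386 (minus strand) for C3, chr6:124542360-124542609 (minus strand) for C1s1 at the more upstream of its 2 listed starts, and chr6:124512371-124512620 (plus strand) for C1ra. Capitals mark matches to the motifs named after the sequences.
C3: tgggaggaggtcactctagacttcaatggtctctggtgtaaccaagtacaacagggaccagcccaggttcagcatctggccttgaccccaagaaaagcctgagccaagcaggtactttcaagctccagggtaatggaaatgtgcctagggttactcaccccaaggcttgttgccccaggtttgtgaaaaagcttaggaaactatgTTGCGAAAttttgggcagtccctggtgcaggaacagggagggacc
C1s1: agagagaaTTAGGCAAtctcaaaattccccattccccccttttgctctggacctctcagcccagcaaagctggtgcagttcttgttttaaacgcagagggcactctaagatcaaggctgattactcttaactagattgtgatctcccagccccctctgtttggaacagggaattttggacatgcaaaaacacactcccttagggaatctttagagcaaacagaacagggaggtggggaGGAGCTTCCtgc
C1ra: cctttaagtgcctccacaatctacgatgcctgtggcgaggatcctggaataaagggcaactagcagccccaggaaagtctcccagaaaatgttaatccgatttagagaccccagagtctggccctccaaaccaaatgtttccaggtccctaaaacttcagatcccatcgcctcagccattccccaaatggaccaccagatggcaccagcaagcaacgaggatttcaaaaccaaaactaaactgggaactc
A set of 4 short motifs was searched on both strands: GGNNNTTCC (NF-kB core), TTCNNNGAA (STAT), GAAANNGAA (interferon response element core) and TTGCNNAA (C/EBP core). The C3 stretch held 1 C/EBP core, at positions -45 to -38 from the start. The C1s1 stretch held 1 C/EBP core at -242 to -235 and 1 NF-kB core at -12 to -4. The C1ra stretch held none of the 4. Among the promoters of the same length in the table, 9.56% held a C/EBP core, 15.7% an NF-kB core, 7.02% a STAT motif and 7.13% an interferon core. A match is a description of the letters, and binding was not tested.

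C3, the component on which the cascade turns, set the 2 libraries apart most. In CAR-like cells it stood at 802 CPM in the old library (797 to 807) and at 79.3 CPM in the adult library (77.7 to 80.9), from 93110 and 9628 UMIs. The old level was 10.1 times the adult level, a log2 ratio of 3.34 (3.31 to 3.37), and only 10 of the 4192 genes counted in CAR-like cells had a higher ratio. Counted genes are those that reached both 50 CPM and 50 UMIs in their higher library. At least 1 UMI of C3 was found in 79.2% of old CAR-like cells and 28.2% of adult ones. The median depth of these cells was close, at 7352 and 7233 UMIs.

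C4b, which encodes the C4 cut by C1s, stood at 557 CPM in old and 222 CPM in adult CAR-like cells, a log2 ratio of 1.33 (1.31 to 1.35). A UMI was present in 86.8% of old and 67.7% of adult CAR-like cells. C1s1, the protease that cuts C4, stood at 409 CPM in old and 170 CPM in adult CAR-like cells, a log2 ratio of 1.27 (1.24 to 1.29), in 82.8% and 61.4% of cells. The other protease, C1ra, differed less, with 247 CPM in old and 183 CPM in adult cells, a log2 ratio of 0.43 (0.41 to 0.46). Serping1, the inhibitor of both proteases, was nearly level, at 2219 CPM in old and 2084 CPM in adult CAR-like cells, a log2 ratio of 0.09 (0.08 to 0.10), and was found in 94.5% and 94.8% of cells. Among the genes of the classical route, the protease C1s1 and its substrate C4b thus stood at least 2-fold apart, C1ra under 1.5-fold and the inhibitor under 1.1-fold apart.

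Cfb was scarce in both libraries. CAR-like cells held 1609 of its UMIs in the old library and 436 in the adult library, or 13.9 and 3.59 CPM, a log2 ratio of 1.95 (1.79 to 2.10), and 9.98% of old and 2.74% of adult cells had a UMI. It lay under the minimum of 50 CPM and was not counted. Of the 5 genes counted in CAR-like cells, C3, C4b and C1s1 were at least 2-fold higher in the old library and 0 were at least 2-fold lower. Over all counted genes, 2.74% were 2-fold or more higher in the old library and 1.81% were 2-fold or more lower, with a median log2 ratio of 0.0092. CAR-like cells were spread over different expression clusters in the 2 libraries, mainly clusters 9, 26, 11 and 6 in the old library and clusters 1, 0, 2 and 3 in the adult one. Cluster 3, mostly adult, had 1 osteolineage and 0 CAR markers among its 10 leading genes and so was not named CAR-like. Cluster 8, also mostly adult, was not named because 79.5% of its cells passed both the CAR and the osteolineage gate. It had 4 osteolineage markers among its leading genes. Cluster 5 was not named because 52.1% of its cells passed no gate. CAR markers were rarely among the leading genes of any cluster: 9 of the 11 clusters named CAR-like had none there. With CAR-like cells taken as whole clusters, and so without clusters such as 3, 5 and 8, the ratios were 3.27 for C3, 1.25 for C4b, 1.17 for C1s1, 0.34 for C1ra and 0.01 for Serping1.

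Markers of other cell types also differed between the libraries within CAR-like cells. The 10 plasma-cell markers summed to a median of 23.6 UMIs per 10000 in old CAR-like cells (10th to 90th percentile 13.2 to 57.5) and 1.39 in adult ones (0 to 4.20). All 10 were found in the old cells and 9 in the adult ones, where Mzb1 was at 0, and all 10 were higher in old cells. Igkc, the immunoglobulin kappa constant gene, led them at 2102 CPM in old and 0.38 CPM in adult CAR-like cells. The same markers had a median of 23.4 in old and 0 in adult erythroid-like cells. The 10 osteolineage markers, all found in both libraries, summed to a median of 29.9 in old CAR-like cells (4.64 to 89.6) and 77.3 in adult ones (27.8 to 156), and 2 of the 10 were higher in old cells. The part of either list in the complement ratios was not tested.

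**Figure D1:**
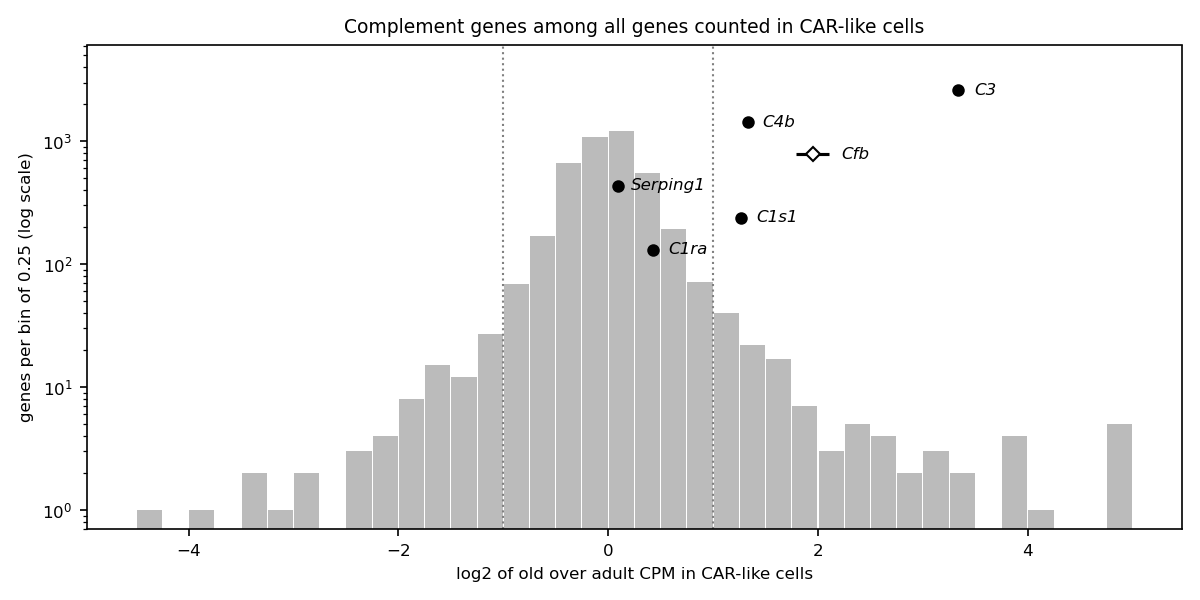
Log2 of old over adult CPM in CAR-like cells (x axis) for all 4192 counted genes, as grey bars with the number of genes per bin on a log scale, and for the 6 complement genes as points with 95% counting intervals, spread in height only to be legible. The open diamond is Cfb, which was under the minimum of 50 CPM; dotted lines mark 2-fold, genes beyond the axis stand in its last bins, and C3 at 3.34 lies in the right tail while Serping1 at 0.09 lies in the centre.

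Cell by cell, C3 differed in how many cells had it and in how much they had. Each CAR-like cell was thinned to 2000 UMIs so that depth was equal, which left out 1038 old and 868 adult cells. C3 was then found in 59.7% of old cells (58.9 to 60.6) and 11.4% of adult cells (10.9 to 11.9). At least 5 C3 UMIs were found in 9.17% of old cells and 0.12% of adult cells. The other shares at equal depth, in old and in adult cells, were 63.1% and 33.4% for C4b, 51.8% and 27.5% for C1s1, 36.2% and 29.0% for C1ra, 90.9% and 90.5% for Serping1, and 2.48% and 0.82% for Cfb. In erythroid-like cells, which are not known to make these proteins and so show what free RNA in the droplets can give, 5.33% of 244 old and 1.90% of 105 adult cells had C3 at the same depth. Those cells had medians of 9041 UMIs in the old library and 7524 in the adult one before thinning.

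**Figure D2:**
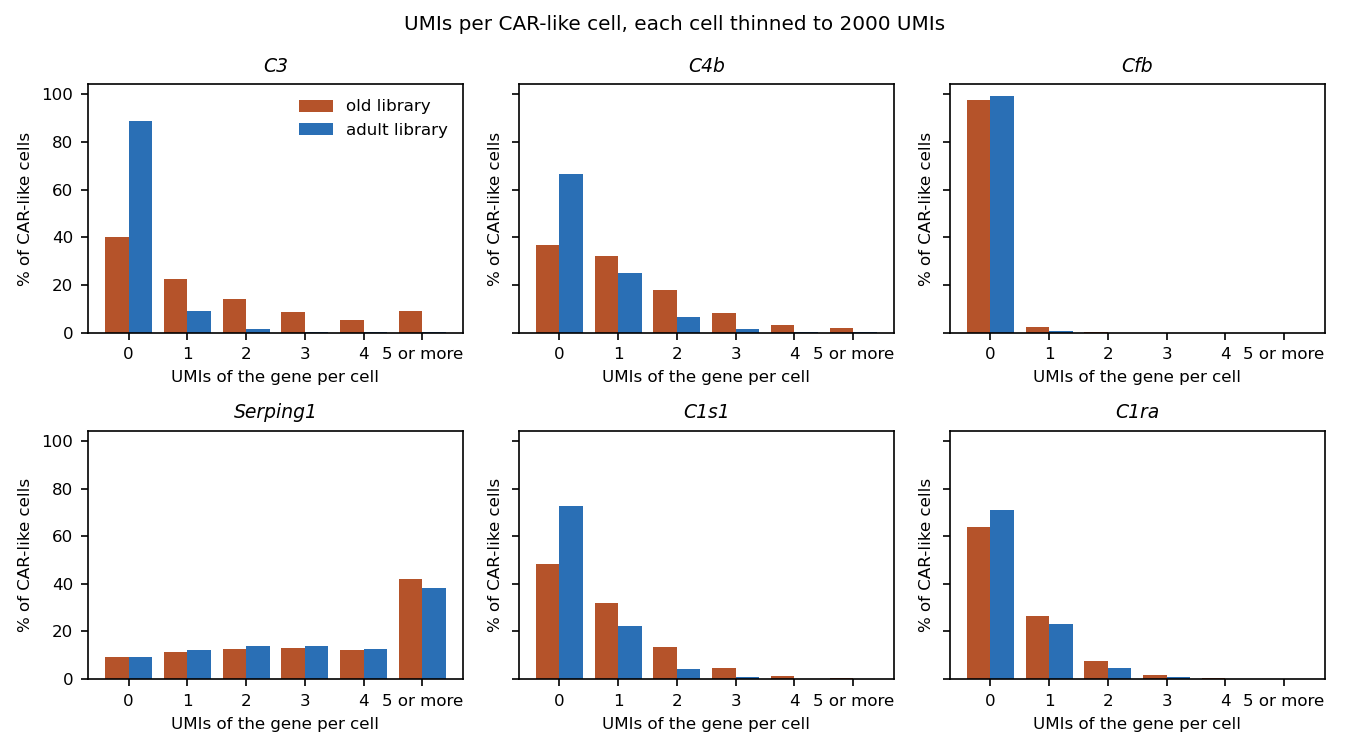
Share of CAR-like cells (y axis, in %) by the number of UMIs of each gene (x axis) after thinning each cell to 2000 UMIs, old library left of the adult one. For C3, 40.3% of old and 88.6% of adult cells had no UMI, while the bars of Serping1 nearly coincide.

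Among CAR-like cells of at least 3000 UMIs, the median cell had 5.31 C3 UMIs per 10000 in the old library and 0 in the adult library. The 90th percentile was 19.6 per 10000 in old and 2.50 per 10000 in adult cells, and the 10th percentile was 0 in both. For Serping1 the medians were 20.9 per 10000 in old and 19.9 per 10000 in adult cells. At 2000 UMIs, 38.3% of old and 6.35% of adult CAR-like cells had UMIs of 4 or more of the 6 genes. Higher single shares alone raise this number, and the share expected from them was not computed. Pairs were found together slightly more often than the product of their single shares, by 1.03 to 1.36 times over all pairs and both libraries. For C3 with C4b the share with both was 40.4% against a product of 37.7% in old cells, and 4.23% against 3.80% in adult cells.

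Within each library the level differed between clusters of CAR-like cells. Clusters were formed on expression that includes these genes, so their levels describe the clusters. Most clusters held almost only cells of 1 library, and the share of all genes whose cluster ranges do not overlap was not computed. Over the 8 clusters with at least 100 old CAR-like cells, C3 ran between 269 and 1523 CPM, and over the 9 such adult clusters between 38.2 and 143 CPM. Among these clusters, the lowest old one, cluster 6, was thus above the highest adult one, cluster 4. C4b, at 324 to 719 CPM in old and 149 to 254 CPM in adult clusters, and C1s1, at 218 to 657 CPM in old and 94.7 to 212 CPM in adult clusters, did not overlap either. Serping1 did overlap, at 663 to 3910 CPM in old and 772 to 2564 CPM in adult clusters, as did C1ra, at 90.8 to 414 CPM in old and 86.7 to 217 CPM in adult clusters. Cfb ran between 4.55 and 29.8 CPM in old and between 1.06 and 7.80 CPM in adult clusters. Smaller clusters did not all keep to these ranges. Adult cluster 15, with 31 CAR-like cells, had C3 at 383 CPM (313 to 464) and C1s1 at 250 CPM, both above old cluster 6. The 28 old cells of cluster 0 had C3 at 141 CPM, and the 21 old cells of cluster 2 had C4b at 89.0 CPM.

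Cluster 26, with 3071 old CAR-like cells and 0 cells of the adult library, had the highest C3 of all, 1523 CPM, and Saa3, an acute-phase gene, at 167 CPM. Cluster 25 was next for C3, at 1122 CPM, and was the highest of all for C4b, Cfb, Serping1, C1s1 and C1ra. Its 801 old CAR-like cells were shallow, with 1884 C3 UMIs in all, and its Cfb level rested on 50 UMIs. Cluster 24 was led by the heat-shock genes Hspa1b and Hspa1a and had C3 at 920 CPM. A single cluster, cluster 4, led by the interferon-induced genes Cxcl10, Cxcl9 and Ifit3, held comparable numbers of both libraries, 263 old and 198 adult CAR-like cells. In it C3 was at 929 CPM in old and 143 CPM in adult cells, a log2 ratio of 2.70 (2.50 to 2.90), C4b had a ratio of 1.29 (1.13 to 1.46), C1s1 of 1.16 (0.99 to 1.34), C1ra of 0.55 (0.36 to 0.74) and Serping1 of 0.03 (-0.03 to 0.09). The other 4 clusters with at least 20 CAR-like cells of each library held 21 to 76 old ones. C3 was higher in their old cells, with ratios of 0.82 (0.13 to 1.44) in cluster 0, where old cells had 141 CPM, 2.22 (1.15 to 3.12) in cluster 2, 2.58 (2.30 to 2.87) in cluster 5 and 3.08 (2.81 to 3.37) in cluster 12. C4b had ratios of 1.15 to 1.59 in clusters 0, 5 and 12 and of -0.87 (-2.49 to 0.36) in cluster 2, where it rested on 5 old UMIs. C1s1 had ratios of 0.61 to 1.28, and its interval in cluster 2 included 0 (-0.40 to 1.45).

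**Figure D3:**
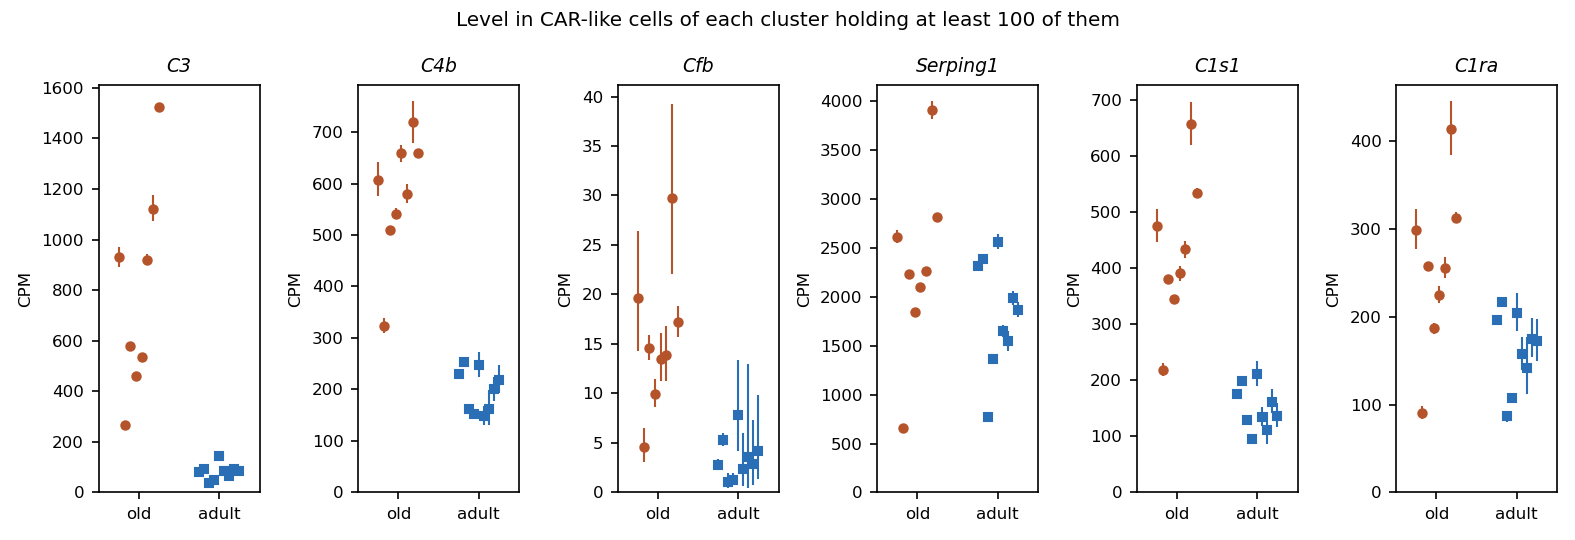
CPM of each gene (y axis, from 0, a scale of its own per gene) in the CAR-like cells of each cluster that held at least 100 of them, with 95% counting intervals; old clusters (circles) are left of adult clusters (squares). The old and adult points shown do not overlap for C3, C4b and C1s1 and overlap for Cfb, Serping1 and C1ra. Smaller clusters are not shown, and the share of all genes without such overlap was not computed.

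Most of the transcripts of these genes came from CAR-like cells. They held 93.5% of all C3 UMIs of kept old cells and 86.2% of those of kept adult cells, against 52.2% and 60.1% of all UMIs. For the other 5 genes the share lay between 92.0% and 92.5% in the old library and between 81.3% and 86.1% in the adult one. Compared with endothelial-like cells, 5 of the 5 counted genes were at least 2-fold higher in CAR-like cells, where 17.1% of genes in the old and 15.8% in the adult library were. Compared with osteolineage-like cells, those with the markers of bone-forming cells, 5 of 5 were at least 2-fold higher in both libraries, against 18.6% of genes in the old and 31.5% in the adult library. Compared with pericyte-like or smooth-muscle-like cells, the contractile cells of vessel walls, 4 of 5 were, against 15.0% of genes in the old and 15.6% in the adult library. The exception was C1s1.

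C1s1 was as high in pericyte-like cells as in CAR-like cells or higher. Its level in 163 old pericyte-like cells was 412 CPM (374 to 453), against 409 CPM (405 to 412) in old CAR-like cells, which overlap. In 337 adult pericyte-like cells it was 285 CPM (263 to 308), against 170 CPM (168 to 172) in adult CAR-like cells, which do not. CAR markers summed to a median of 19.3 UMIs per 10000 in old and 18.9 in adult pericyte-like cells, against 262 and 245 in CAR-like cells. Serping1 and C1ra were also above the free RNA level in the pericyte-like cells of both libraries. Serping1 stood at 714 CPM in old and 688 CPM in adult pericyte-like cells (log2 ratio 0.05, -0.08 to 0.18), against 76.2 and 148 CPM in erythroid-like cells. C1ra stood at 56.8 CPM (43.1 to 73.4) in old and 48.5 CPM (39.8 to 58.6) in adult pericyte-like cells, against 5.24 and 11.6 CPM in erythroid-like cells.

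C4b was the one counted gene of 4 that was at least 2-fold higher in old pericyte-like cells, where 5.98% of all counted genes were. It had 119 UMIs, or 116 CPM (96.5 to 139), in old and 45 UMIs, or 20.2 CPM (14.7 to 27.0), in adult pericyte-like cells, a log2 ratio of 2.53 (2.02 to 3.06). The ratio was 1.58 with cells taken by clusters and 3.59 with the erythroid-like level subtracted. The adult value overlaps the 12.8 CPM of adult erythroid-like cells (6.39 to 22.9), and the old value lies above the 27.4 CPM of old erythroid-like cells (21.3 to 34.8). At 2000 UMIs, 15.3% of old and 2.48% of adult pericyte-like cells had a C4b UMI. C1s1 was 1.45 times higher in old pericyte-like cells (1.27 to 1.64). C3 was at 25.5 CPM in old and 5.39 CPM in adult pericyte-like cells, at or below erythroid-like cells of the same library (35.9 and 9.31 CPM), and is read as background.

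In osteolineage-like cells C4b and Serping1 were the 2 genes counted, and both were at least 2-fold higher in the old library, where 14.2% of counted genes were. C4b had 102 CPM in 503 old cells and 22.3 CPM in 1259 adult cells, a log2 ratio of 2.20 (2.05 to 2.35). Serping1 had 316 CPM in old and 147 CPM in adult cells, a ratio of 1.10 (1.03 to 1.18), which was 0.49 over cells of 3000 to 15000 UMIs only. C1s1 had 48.7 CPM in old and 11.0 CPM in adult cells, and C1ra 46.7 CPM in old and 13.3 CPM in adult cells. The adult levels of C4b, C1s1 and C1ra overlapped those of adult erythroid-like cells (12.8, 16.3 and 11.6 CPM). Their old levels were above those of old erythroid-like cells (27.4, 16.5 and 5.24 CPM). In CPM the adult Serping1 level was also that of adult erythroid-like cells (148 CPM), while the old level was above that of old erythroid-like cells (76.2 CPM). Depth differed between these classes. The median was 12576 UMIs in old and 23047 UMIs in adult osteolineage-like cells, against 9041 and 7524 UMIs in erythroid-like cells. A fixed amount of free RNA gives a lower CPM in a deeper cell, and whether the adult levels are free RNA was not tested. C3 had 29.2 CPM in old and 5.17 CPM in adult cells, below the erythroid-like level of each library. The median ratio of all counted genes in the class was 0.25.

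Different kinds of osteolineage-like cell filled the class in the 2 libraries. Cluster 10, led by Spp1, Mmp9 and Postn, held 77.9% of the old and 5.56% of the adult cells, while cluster 7, led by Bglap and Bglap2, held 13.5% of the old and 78.5% of the adult cells. Within cluster 7 Serping1 was level, at 126 CPM in 68 old and 125 CPM in 988 adult cells. Within cluster 10 it was at 376 CPM in 392 old and 197 CPM in 70 adult cells. C4b was higher in the old library in both, at 35.9 CPM in old and 19.2 CPM in adult cells of cluster 7 and at 121 CPM in old and 47.3 CPM in adult cells of cluster 10. Both cluster 7 values overlapped the erythroid-like level of their library, 27.4 CPM in old (21.3 to 34.8) and 12.8 CPM in adult cells (6.39 to 22.9). CAR markers summed to a median of 14.9 UMIs per 10000 in old and 5.83 in adult osteolineage-like cells, and their part in these values was not tested.

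Cells that passed both the CAR and the osteolineage gate, 155 old and 1679 adult, lay between the 2 classes. C3 stood at 284 CPM in old and 43.5 CPM in adult cells of this kind, C4b at 354 and 134 CPM, C1s1 at 202 and 89.8 CPM, C1ra at 127 and 105 CPM, and Serping1 at 1217 and 1158 CPM. Of the 5 counted genes, C3, C4b and C1s1 were at least 2-fold higher in the old library, with log2 ratios of 2.71, 1.40 and 1.17, where 7.16% of counted genes were. Old cells of this kind lay mainly in clusters 10 and 11 and adult ones in cluster 8.

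Endothelial-like cells had little of these transcripts. Serping1, the one gene counted there, stood at 84.6 CPM in 290 old cells and 99.8 CPM in 1312 adult cells, and it was not 2-fold apart, where 6.40% of counted genes were at least 2-fold higher. The old level overlapped those of old erythroid-like cells (76.2 CPM) and old megakaryocyte-like cells (118 CPM). The adult level (92.8 to 107) lay below those of adult erythroid-like cells (148 CPM, 123 to 176) and adult megakaryocyte-like cells (205 CPM, 174 to 238). The erythroid-like level of Serping1 was thus not a floor for every adult class. C3 had 39.3 CPM in old and 5.62 CPM in adult endothelial-like cells, C4b 23.4 and 11.9 CPM, C1s1 18.9 and 13.7 CPM, and C1ra 13.6 and 12.4 CPM, each near the erythroid-like or megakaryocyte-like level of its library. The ratio of C3 to Serping1 UMIs was 0.46 in old endothelial-like cells, 0.47 in old erythroid-like cells and 0.48 in old megakaryocyte-like cells, so the proportion was close in these 3 classes.

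Cfb in endothelial-like cells did not follow that pattern. It had 12 UMIs in old cells, or 9.07 CPM (4.69 to 15.8), and 11 UMIs in adult cells, or 1.44 CPM (0.72 to 2.57). Old erythroid-like cells had 0, which allows up to 1.21 CPM, and old plasma-like cells, antibody-secreting cells, had 0.54 CPM. For each Serping1 UMI there were 0.11 Cfb UMIs in old endothelial-like cells and 0.0062 in old CAR-like cells. The old endothelial-like cells were mainly arterial-like (201 cells, against 19 with sinusoidal markers), the adult ones more often sinusoidal-like (357 arterial-like and 505 sinusoidal-like). Among arterial-like cells alone Cfb was at 8.87 CPM in old (9 UMIs) and 1.64 CPM in adult cells (4 UMIs).

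Of the blood cells, only neutrophil-like cells had C3 well above the free RNA level among classes of at least 10 cells. The 77 old neutrophil-like cells had 245 C3 UMIs, or 320 CPM (281 to 363), and the 13 adult ones had 8 UMIs, or 120 CPM (51.8 to 236). At 2000 UMIs, 41.2% of old neutrophil-like cells had C3 (29.4 to 53.8). They held 2.43 C3 UMIs per Serping1 UMI, against 0.36 in old CAR-like cells, so their C3 was not in the proportion seen in CAR-like cells. Megakaryocyte-like cells had C3 at 57.0 CPM in old and 8.73 CPM in adult cells, and plasma-like cells, 1161 in the old library and 0 in the adult one, at 28.3 CPM. In 5 old monocyte-like cells 14 C3 UMIs gave 317 CPM (173 to 531).

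Fibroblast-like, Schwann-like and chondrocyte-like cells were few or came from one library. The 8 old and 18 adult fibroblast-like cells had Serping1 at 1380 and 1382 CPM, C1s1 at 433 and 245 CPM and C3 at 391 and 162 CPM. The 4 old and 13 adult Schwann-like cells, with markers of peripheral glia, had C4b at 623 CPM (12 UMIs) and 329 CPM (20 UMIs), while their C3 rested on 1 UMI in each library. The 107 chondrocyte-like cells, with markers of cartilage and all adult, had Serping1 at 107 CPM, C4b at 16.1 CPM and C3 at 11.2 CPM.

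Among classes of at least 50 cells, the order of levels differed between the genes. CAR-like cells came first in both libraries for C3, C4b, Serping1 and C1ra, and no interval of theirs met that of the next class. Pericyte-like cells came first for C1s1, in the old library with an interval that met that of CAR-like cells. For C3 in the old library, neutrophil-like cells (320 CPM) and cells with both CAR and osteolineage markers (284 CPM) came next and overlapped each other, and every class from megakaryocyte-like cells (57.0 CPM) down overlapped its neighbour. For Serping1 in the old library the order was CAR-like, double-marked, pericyte-like and osteolineage-like cells, with no overlap between neighbours, and the remaining classes lay between 76.2 and 132 CPM. In the adult library the first 3 were the same, but osteolineage-like cells, at 147 CPM, were level with erythroid-like cells, at 148 CPM.

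Over 17 profiles of a class in a library, the pattern of log2(CPM + 10) of Serping1 was most like that of C1ra, with Pearson r of 0.98, the only pair of the 6 in which each was the other's nearest. Next for Serping1 were Slc16a7 and Acss3, and for C1ra Plxdc2 and Abca8a, each at 0.97. C1s1 was most like Mark1 (0.98), Pdgfrb (0.96), which encodes a receptor that marks pericytes, and Naalad2 (0.96). C4b was most like Ccl19 (0.98), Csmd1 (0.97) and Mir100hg (0.96), Cfb most like Eva1c (0.93), Phactr1 (0.91) and Fbln5 (0.88), and C3 most like Nrg2 (0.92), Apbb1ip (0.91) and Efemp1 (0.88). The profiles share 2 libraries and differ in depth, so these are descriptions. Across single CAR-like cells the genes most correlated with C3 in the old library were Hp (0.50), Gpx3 (0.49), Mgp (0.45), Serping1 (0.44) and Plac9 (0.42), over 14359 cells. In 15063 adult cells all were weaker, with Hp (0.19), Serping1 (0.18), C1s1 (0.16), Rarres2 (0.16) and Apoe (0.16). Hp, which encodes the acute-phase protein haptoglobin, is one of the markers of the CAR gate.

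The rest of the complement system was mostly under the minimum or close to level in CAR-like cells. Of 53 listed genes followed by symbol, 8 were counted, and 5 of these are among the 6 genes described above. At least 2-fold higher in the old library were 3, again C3, C4b and C1s1, and 0 were lower. Over all counted genes these shares were 2.74% and 1.81%. The median log2 ratio of the 8, which includes those 3, was 0.38 against 0.0092 for all genes. Among the 47 listed genes other than the 6, 3 were counted, with a median log2 ratio of 0.31, and 0 were 2-fold apart. Clu, which encodes clusterin, an inhibitor of the terminal complex, stood at 471 CPM in old and 381 CPM in adult cells (log2 ratio 0.31). Cr1l, the mouse membrane regulator Crry, stood at 92.7 CPM in old and 73.7 CPM in adult cells (0.33), and Colec12, a membrane collectin, at 851 and 775 CPM (0.14). C3 was thus far higher in old cells while the counted regulators Clu and Cr1l differed by less than 1.5-fold. The regulator Vtn, under the minimum, was also far higher in old cells, with a log2 ratio of 3.24.

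Several genes under the minimum are named after their values were seen. C2, the partner of C4 in the classical route, stood at 27.7 CPM in old and 23.9 CPM in adult CAR-like cells, and C6, of the terminal complex, at 49.1 and 48.8 CPM. Vtn, which encodes the fluid-phase regulator vitronectin, had 17.0 CPM in old and 1.80 CPM in adult cells, a log2 ratio of 3.24 (3.03 to 3.44) close to that of C3. Cd55 and Cd59a, which encode membrane regulators, ran the other way, with Cd55 at 4.33 CPM in old and 13.3 CPM in adult cells and Cd59a at 1.87 and 6.33 CPM. Both lay below erythroid-like cells, where Cd55 had 36.3 CPM in old and 43.1 CPM in adult cells and Cd59a 25.4 and 15.1 CPM. Of the other listed membrane regulators, Cd46 was higher in old CAR-like cells (37.9 and 27.1 CPM), as was Cr1l. Cd59b (5.04 and 7.31 CPM) and Cd55b (0.02 and 0.30 CPM) were lower in old ones. Cfd, the protease that activates factor B, had 0.82 CPM in old and 4.77 CPM in adult cells. The receptor genes C3ar1 and C5ar1 were each under 3 CPM in both libraries.

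**Figure D4:**
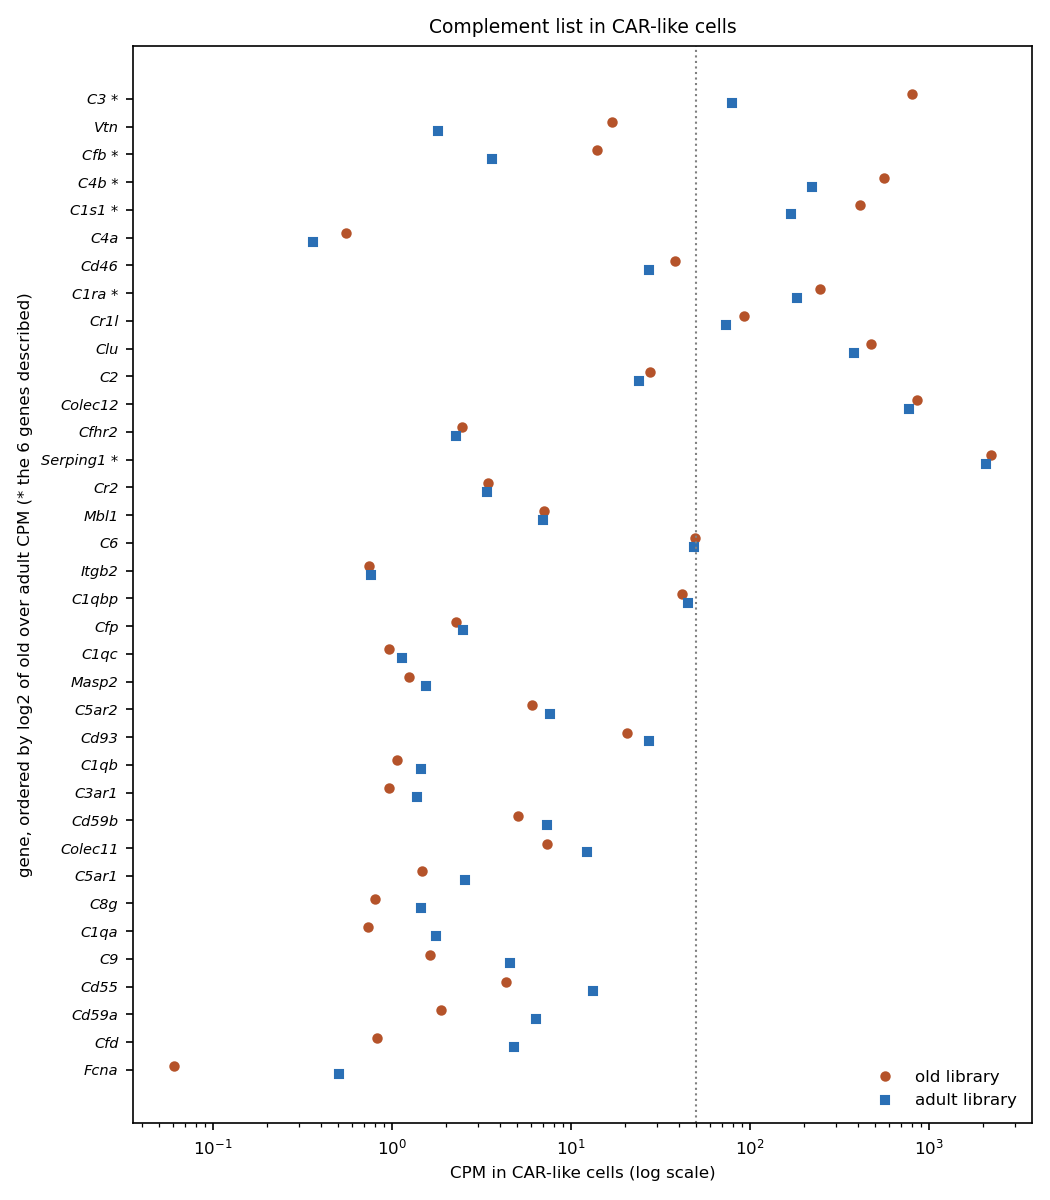
CPM on a log scale (x axis) in old (circles) and adult (squares) CAR-like cells for the 36 listed complement genes with at least 50 UMIs in either library, ordered by their ratio with the most old-enriched at the top. The dotted line marks 50 CPM, and asterisks the 6 genes described; of the genes right of the line, C3, C4b and C1s1 have the widest gaps.

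The close copies took few counts. In CAR-like cells C4a had 64 UMIs in the old and 44 in the adult library, C1rb 45 and 33, and C1s2 39 and 19, all under 1 CPM. Of the 50-base words in the last 500 bases of the transcript (GENCODE M21, build GRCm38), 38.1% of those of C4b were also found in C4a, 18.0% of those of C1s1 in C1s2 and 19.1% of those of C1ra in C1rb. Reads from such shared stretches cannot be assigned to one copy, so the counts of these 3 genes are uncertain to that extent.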

How the data were processed

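For each library the authors deposited gene and barcode lists with raw UMI counts as a sparse matrix. Per the file headers these counts came from Cell Ranger 7.0.1, and per the submitters' processing notes the build was GRCm39. The annotation release and any barcode filter were not stated there. The genes described, the complement list and the markers were chosen with earlier results of these data known, and 1 gene of the complement list is not reported here.

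Counts were read with scipy 1.17.1. Barcodes with under 500 genes or over 10% mitochondrial UMIs were left out. A cell joined a class when its summed markers per 10000 UMIs passed a threshold and at least 3 or 4 markers were found; thresholds were set after the data had been seen. Cells that passed several gates were set apart (435 old and 1042 adult cells), except the CAR and osteolineage pair, and no doublet caller was run. Cells that passed no gate (1196 old and 1060 adult) form no class, but they were clustered and count in the shares of all kept UMIs. Joint clusters came from scanpy 1.11.5 (2000 variable genes, 50 components, 15 neighbours, Leiden resolution 1, no integration).

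UMIs were summed per class and library and given as CPM, with exact Poisson intervals for sums, Clopper-Pearson intervals for shares and exact conditional binomial intervals for ratios. A count of 0 allows 3 counts. PCR duplicates are removed by UMIs, and all intervals cover counting error only, since the droplets of one library are not replicates. The ratio and its interval were tested on simulated Poisson counts, which held no variation between cells, animals or libraries. That test checks the calculation only, since the intervals rest on the same model. No count model was fitted, because each age group had 1 library. Named genes were the 6 genes, listed complement genes of at least 50 CPM and 50 UMIs in CAR-like cells, the 3 close copies, the 3 genes nearest to each by profile among genes of at least 100 CPM in 1 profile, and the 5 genes most correlated with C3 across cells among genes found in at least 5% of them. The listed complement genes of under 50 CPM, the leading genes of clusters, Saa3, Igkc and Mzb1 were named after their values were seen. Alternatives changed the class definition, the filters on cells, the weighting, the scaling, the background and the depth. No genome of the files' build was used: positions are those of the RefSeq promoters on GRCm38.p6.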

Additional observations from a re-analysis of the deposited data

Results flagged for a closer look

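Serping1 had opposite directions in classes of the same libraries. Its log2 ratio of old over adult CPM was 1.10 in osteolineage-like cells and -0.96 in erythroid-like cells, where it had 76.2 CPM in old and 148 CPM in adult cells. The osteolineage-like ratio was 0.49 over cells of 3000 to 15000 UMIs. Different clusters filled that class in the 2 libraries. Serping1 was level in cluster 7, at 126 CPM in old and 125 CPM in adult cells, and was at 376 and 197 CPM in cluster 10. Erythroid-like cells were taken above to show what free RNA can give. The difference between the classes was not tested.

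The filters left out 3323 old and 3232 adult barcodes. Those of the old library held transcripts of all 6 genes above the level of old erythroid-like cells. In the left-out barcodes C3 stood at 194 CPM in the old library and 25.9 CPM in the adult library, C4b at 151 and 67.1 CPM, C1s1 at 123 and 49.5 CPM, C1ra at 66.3 and 49.2 CPM, and Cfb at 2.02 and 0.60 CPM. Serping1 was close in both, at 493 CPM in old and 483 CPM in adult left-out barcodes.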

How the results depend on the processing

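No paired analysis was possible because each age group has 1 library and the labels give no replicate numbers. All 54 alternative ratios in CAR-like cells kept their sign: 37 lay within the counting interval of the reported value and 17 outside it. Cells taken by clusters gave log2 ratios of 3.27 for C3, 1.25 for C4b, 0.0061 for Serping1, 1.17 for C1s1 and 0.34 for C1ra. The stricter gate gave 1.31 for C4b, 0.073 for Serping1 and 1.24 for C1s1. Weighting each cell alike gave 3.39 for C3, 0.14 for Serping1 and 0.47 for C1ra. Subtracting the erythroid-like level gave 3.45 for C3, 0.15 for Serping1, 1.35 for C1s1 and 0.49 for C1ra. Serping1 was 0.082 when centred on the median gene and 0.057 in cells of 3000 to 15000 UMIs. The count of 3 genes at least 2-fold higher in old CAR-like cells stayed 3 at 1.5-fold and was 4, with Cfb, under no minimum. In pericyte-like cells the ratio of C4b was 1.58 with cells taken by clusters, and in endothelial-like cells that of Serping1 was 0.19 by clusters, against -0.24 by gate; the cause was not tested. Of 195 alternative ratios in other classes, 166 lay within the interval. Subtraction gave no value where a class lay below the erythroid-like level. Leaving out barcodes found in both libraries, added after seeing the data, was one of these alternatives. With cells thinned to 1000 UMIs, 43.3% of old and 6.45% of adult CAR-like cells had C3. Counting depth limits Cfb and the classes under 100 cells most.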
